A study of Mus musculus with 3 samples.

Results

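Gpam, Acacb and Ogdh encode 3 enzymes of fuel metabolism, and they were chosen by name for a description of their long transcripts in mouse striated muscle. They are 3 of the 48397 genes in the gene count table, of which 3219 had at least 1 read. All 3 are also among the 686 genes with exon counts, where they hold 137 of 27271 exonic parts. An exonic part is a stretch of exon between neighbouring exon borders. Parts numbered with u- came from the reads themselves and are not in the annotation the authors used. Gpam had 35 parts (14 of them u- parts), Acacb 63 (2 of them u- parts) and Ogdh 39 (1 of them a u- part).

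The RNA came from wild-type male C57BL/6 mice aged 8 weeks. The tissues were cardiac apex, whole soleus, a slow-twitch muscle, and the extensor digitorum longus (EDL) taken whole, which is fast-twitch. Each tissue had 1 PacBio Iso-Seq library from cDNA selected at 5 to 10 kb, so no difference below has a replicate check and each test compares libraries, not tissues. The sources used here do not give the number of mice per library. A full-length read stands for 1 sequenced molecule, and a consensus read merges full-length reads judged alike.

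Gpam is the mitochondrial outer membrane glycerol-3-phosphate acyltransferase, which joins a fatty acyl-CoA to glycerol-3-phosphate in the first step of glycerolipid synthesis. Acacb, acetyl-CoA carboxylase 2, makes malonyl-CoA at the mitochondrial surface, where malonyl-CoA inhibits the carnitine shuttle that brings fatty acids in for oxidation. In striated muscle the enzyme is known as a brake on fatty acid oxidation and as a target of AMP-activated protein kinase. Ogdh is the E1 subunit of the 2-oxoglutarate dehydrogenase complex, a calcium-sensitive step of the tricarboxylic acid (TCA) cycle.

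The libraries held 18302 (cardiac), 19826 (EDL) and 17459 (soleus) consensus reads in genes. Scaled to RPM (reads per 1000000 reads in genes), 1 read was worth 54.6, 50.4 and 57.3. Summed levels of tissue markers followed the labels. All 6 cardiomyocyte markers were called higher in the cardiac library than in either leg muscle, with summed levels of 132062, 2018 and 1947 RPM in cardiac, EDL and soleus. The 5 fast fibre markers summed to 1147, 35711 and 17069 RPM, and the 5 slow fibre markers to 2950, 1009 and 26118 RPM. Between EDL and soleus, 1 of 5 fast fibre markers was called higher in EDL (Myh4), while Myh1 had 119 and 100 reads. The 2 slow fibre markers with enough reads, Myh7 and Atp2a2, were called higher in soleus. Myh7 gave 433 of the 456 slow fibre reads in soleus, where Tnnt1 and Tnni1 had 1 and 0. None of 8 adipocyte markers (Adipoq, Plin1, Lep, Retn, Fabp4, Cidec, Cfd and Lipe) and none of 3 liver markers had a read in any library, and 4 brown adipocyte markers together had 1, in soleus. The 5 to 10 kb selection limits what a count of 0 shows for short transcripts. The 6 endothelial markers had 69, 52 and 46 reads, and their part in the results below was not tested.

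All 3 enzymes were read in all 3 muscles, and on consensus reads none of the 3 differed between libraries beyond its counting interval. On full-length reads some ratio intervals of Gpam and Ogdh lay off 1, as given below. Gpam had 112 reads in the cardiac apex, 127 in EDL and 122 in soleus. These are levels of 6120 RPM (95% interval 5039 to 7363), 6406 RPM (5340 to 7622) and 6988 RPM (5803 to 8343). The 3 intervals overlap over most of their length. Levels are per library total and not per transcript length, so they are compared between muscles and not between genes.

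Acacb had 44 reads in the cardiac apex, 43 in EDL and 52 in soleus. Its levels were 2404 RPM (1747 to 3227), 2169 RPM (1570 to 2921) and 2978 RPM (2224 to 3906). Soleus was highest and EDL lowest, with overlapping intervals. Ogdh had 22, 15 and 19 reads in the same order. Its levels were 1202 RPM (753 to 1820) in the cardiac apex, 757 RPM (423 to 1248) in EDL and 1088 RPM (655 to 1699) in soleus. The cardiac apex was highest and EDL lowest, again with overlapping intervals. The longest annotated Ogdh transcript has 4127 nt, below the size range selected for the cDNA. Whether these read counts follow the amount of Ogdh transcript in each muscle was not tested.

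A gene was called different when it had at least 20 reads in the pair of libraries together and the exact conditional binomial 95% interval of the RPM ratio lay wholly beyond 2-fold. By this rule 8.4% of 500 genes were called for cardiac apex against EDL, 8.25% of 473 for cardiac apex against soleus and 1.82% of 494 for EDL against soleus. None of the 3 enzymes was called in any pair. For Gpam the cardiac over EDL ratio was 0.955 (0.734 to 1.24), the cardiac over soleus ratio 0.876 (0.672 to 1.14) and the EDL over soleus ratio 0.917 (0.709 to 1.19). These intervals lie wholly within a 2-fold change in either direction. Counted by full-length reads, the cardiac over soleus ratio was 1.27 (1.19 to 1.36) and the EDL over soleus ratio 1.25 (1.17 to 1.34), on the other side of 1 and also not called.

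For Acacb the cardiac over EDL ratio was 1.11 (0.711 to 1.73), the cardiac over soleus ratio 0.807 (0.528 to 1.23) and the EDL over soleus ratio 0.728 (0.475 to 1.11). The last interval reaches just past a 2-fold lower level in EDL. For Ogdh the ratios in the same order were 1.59 (0.788 to 3.29), 1.10 (0.571 to 2.16) and 0.695 (0.329 to 1.44). At this depth a difference of up to 3.29-fold in Ogdh between the cardiac apex and EDL lies within the counting interval. Counted by full-length reads, Ogdh was 1.83 (1.09 to 3.16) for cardiac over EDL and 1.65 (1.02 to 2.68) for cardiac over soleus, intervals off 1 but not beyond 2-fold, and such reads are not independent.

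**Figure D1:**
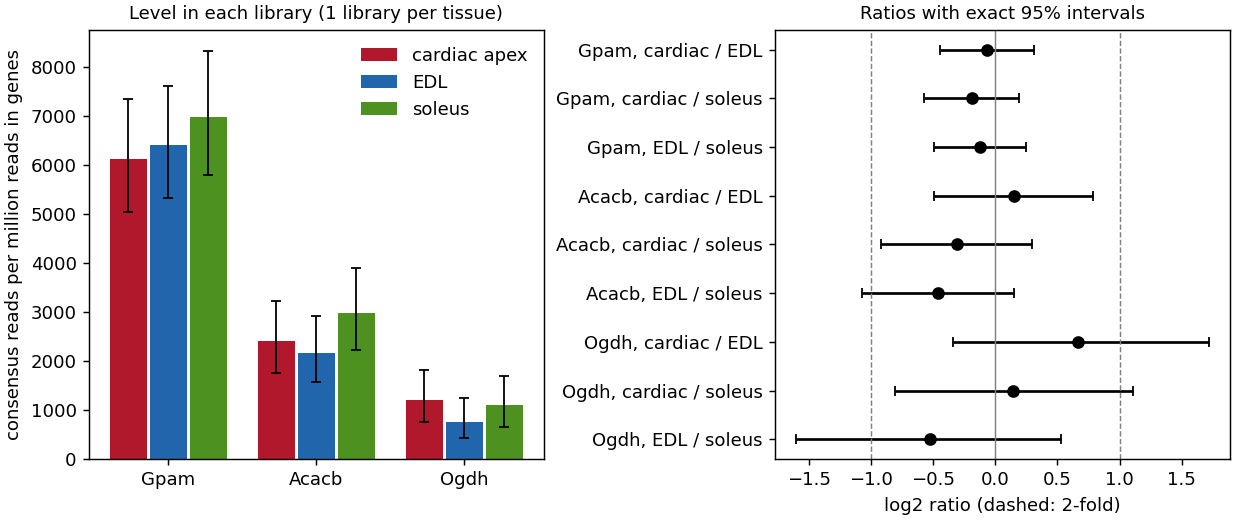
Left, consensus reads scaled to RPM for Gpam, Acacb and Ogdh in the 3 libraries, with exact 95% counting intervals as bars. Right, log2 ratio of RPM in each pair of libraries with its exact conditional 95% interval. All 9 ratio intervals span 0 on the log2 scale.

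Few other genes of these pathways had enough reads to be compared. Of 20 glycerolipid synthesis genes, 18 were in the table, 7 had a read and 3 had at least 20 reads in the 3 libraries together. Apart from Gpam these were Lpin1, the phosphatidic acid phosphatase lipin 1, with 12, 18 and 18 reads in the cardiac apex, EDL and soleus, and Agpat3, an acyltransferase of the step after Gpam, with 10, 10 and 12. The median log2 ratio of the 3 genes was -0.07 for cardiac apex over EDL, -0.33 for cardiac apex over soleus and -0.18 for EDL over soleus, beside -0.02, -0.07 and -0.06 over all genes tested. None of the 3 was called in any pair.

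Of 21 genes of malonyl-CoA metabolism and the carnitine shuttle, 6 had a read, and Prkaa2 was the only one beside Acacb with 20. Prkaa2, the alpha 2 catalytic subunit of AMP-activated protein kinase, had 12, 29 and 15 reads. Its cardiac over EDL ratio was 0.448 (0.208 to 0.906), an interval off 1 but not beyond 2-fold. Of the 500 genes tested in this pair, 22.4% had an interval off 1. None of 21 genes of fatty acid uptake and oxidation reached 20 reads, although 8 had a read.

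Of 31 genes of the 2-oxoglutarate dehydrogenase complex and the TCA cycle, 16 had a read, and Ogdh and Pdk1 had at least 20. Pdk1, a kinase that inhibits pyruvate dehydrogenase, had 15, 11 and 10 reads, and no ratio of it was called. Among 15 regulators of oxidative and lipid genes, Esrrg and Mlxip had at least 20 reads. Esrrg, an orphan nuclear receptor that drives oxidative metabolism genes, had 12, 12 and 28 reads. Its EDL over soleus ratio was 0.377 (0.175 to 0.766) and its cardiac over soleus ratio 0.409 (0.189 to 0.830). Neither was beyond 2-fold over the whole interval. An interval off 1 was found for 12.1% of the 494 genes tested for EDL against soleus and 20.5% of the 473 for cardiac apex against soleus. Mlxip, a glucose-responsive transcription factor also named MondoA, had 7, 15 and 10 reads. No gene of these 5 lists was called in any pair.

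The genes whose split over the 3 libraries was most like each enzyme's were taken from 480 genes with at least 30 reads, by the Euclidean distance between the 3 shares of scaled reads. The shares of Gpam were 31.4% cardiac, 32.8% EDL and 35.8% soleus, and the 5 nearest genes were Pcm1, Rabep1, Usp53, Zbtb20 and Zfp638, at 0.581 to 1.26 points. For Acacb, at 31.8%, 28.7% and 39.4%, they were Agpat3, Dnmt3a, Scaf11, Kitl and Sft2d2, at 0.51 to 1.43 points. For Ogdh, at 39.5%, 24.8% and 35.7%, they were Arhgap5, Daam1, Lmo7, Zfp24 and Rlim, at 1.17 to 2.06 points. With 3 libraries such likeness is only a description.

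Gpam differed between the libraries at its 5′ end, ahead of the start codon. All coordinates are on GRCm38 (mm10), counted from 1. Gpam lies on the minus strand of chromosome 19, and its start codon is in part 20 (chr19:55097497-55097627). Upstream of it are part 21 (chr19:55099329-55099451, 123 nt), which is the first exon of the transcript Gpam-201, and a series of u- parts, all non-coding. Part u-008 (chr19:55102957-55103345, 389 nt) begins 3894 bases upstream of part 21 and overlaps an exon of Gpam-202, Gpam-204 and Gpam-205 in the GENCODE M21 annotation. Part u-013 (chr19:55119766-55120084, 319 nt) begins 20633 bases upstream of part 21, and no M21 exon matches it.

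RefSeq promoters on GRCm38.p6 were found for 3 of 3 genes, and Gpam has 2 RefSeq starts. The nearer one lies 26 bases upstream of part 21. The 250 bases before it (chr19:55099478-55099727, minus strand) are shown because part 21 is the annotated first exon that was called on full-length reads. The capitals mark the only match, on either strand, among 3 motifs searched, which were the TATA box letters TATAAA, the GC box letters GGGCGG and the CCAAT box letters. It is the GC box on the opposite strand, beginning 16 bases before the start.
Gpam part 21 promoter: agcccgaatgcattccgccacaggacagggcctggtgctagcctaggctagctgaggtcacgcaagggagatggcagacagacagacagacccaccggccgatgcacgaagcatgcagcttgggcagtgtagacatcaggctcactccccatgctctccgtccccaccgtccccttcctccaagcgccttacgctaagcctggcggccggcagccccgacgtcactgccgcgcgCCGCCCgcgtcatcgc
Of 32851 such windows, 32.7% hold the GC box letters on either strand, 33.8% the CCAAT letters and 12.4% the TATA box letters. The other RefSeq start lies 7154 bases upstream of the outer end of u-013, and no exonic part of the deposited table marks it.

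Part 21 was held by 145 of 1290 covering full-length reads in the cardiac apex (11.2%), 633 of 1408 in EDL (44.96%) and 153 of 1301 in soleus (11.8%). EDL was high and the other libraries were alike. The part was called in both pairs with EDL, with an adjusted p of 1.54e-85 against cardiac apex and 3.84e-82 against soleus, and not between the cardiac apex and soleus (adjusted p 1). These are two-sided Fisher's exact tests, adjusted by the Benjamini-Hochberg method across every part tested, and a call also needed at least 20 points of difference and 30 covering consensus reads in some library. Across all parts, 1.38% of 15653 were called for cardiac apex against EDL, 1.03% of 15177 for cardiac apex against soleus and 0.288% of 17043 for EDL against soleus. Genes with at least 1 called part were 5.85% of 496, 5.76% of 486 and 4.25% of 541. The parts and genes counted include those under 30 covering consensus reads in every library, which could not be called. With no minimum of consensus reads, 1.65% of parts were called for cardiac apex against EDL and 1.21% for cardiac apex against soleus.

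The difference at part 21 was in full-length reads and not in consensus reads. Of consensus reads, 19 of 76 held it in the cardiac apex (25%), 18 of 95 in EDL (18.9%) and 18 of 75 in soleus (24%), so EDL was lowest and no pair was called. A consensus read that held part 21 merged a mean of 7.63 full-length reads in the cardiac apex, 35.2 in EDL and 8.50 in soleus. Full-length reads merged in 1 consensus read are not independent observations, so the Fisher p-values are too small. Gpam as a whole merged 15.6, 13.8 and 14.2 full-length reads per consensus read, where the median gene with at least 10 consensus reads merged 2.44, 2.56 and 2.43. In the authors' deposited table, part 21 is listed as differing by 20 percent and kept after the check by eye, with a note naming it exon 1.

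Many Gpam reads ran past part 21 to exons farther upstream. How far reads went was measured as read reach, the reads covering a part as a share of those over the gene's best covered part. This measure was chosen after seeing the data, and it takes the call rule of exon use. By it 2.13% of 19637 parts were called for cardiac apex against EDL, 3.23% of 19417 for cardiac apex against soleus and 2.11% of 21757 for EDL against soleus, and genes with a called part were 7.46%, 8.21% and 7.93%.

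Part u-013 was reached by 1 of 1742 full-length reads in the cardiac apex (0.0574%), 702 of 1754 in EDL (40.0%) and 388 of 1736 in soleus (22.4%). Every one of the EDL reads held the part, as did 386 of the 388 soleus reads. For a read whose outermost part is u-013, reaching and holding it amount to the same, so this is not a separate result. EDL was high, soleus intermediate and cardiac apex near 0. The adjusted p from Fisher's exact test was 9.90e-243 for cardiac apex against EDL and 4.80e-124 for cardiac apex against soleus, and both were called. EDL against soleus differed by 17.7 points, under the 20 a call needs (adjusted p 7.18e-28).

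Consensus reads kept the high share in EDL and lowered the one in soleus. They reached u-013 in 1 of 112 cases in the cardiac apex (0.893%), 68 of 127 in EDL (53.5%) and 9 of 122 in soleus (7.38%). The cardiac apex against EDL was still called. The cardiac apex against soleus was not (-6.48 points, adjusted p 0.319), and EDL against soleus was called (46.2 points, adjusted p 8.20e-14, Fisher's exact test). The 9 soleus consensus reads merged a mean of 43.1 full-length reads each, against 10.3 for the 68 in EDL. The u-013 exon was thus read in many EDL consensus reads, while its share in soleus full-length reads rests on 9 consensus reads.

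In cardiac apex and soleus the outermost part was most often u-008. Reads that reached u-008 and went no farther were 64.5% of full-length reads in the cardiac apex, 16.6% in EDL and 43.7% in soleus. By consensus reads the shares were 44.6%, 10.2% and 38.5%. EDL was lowest on both kinds of read.

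**Figure D2:**
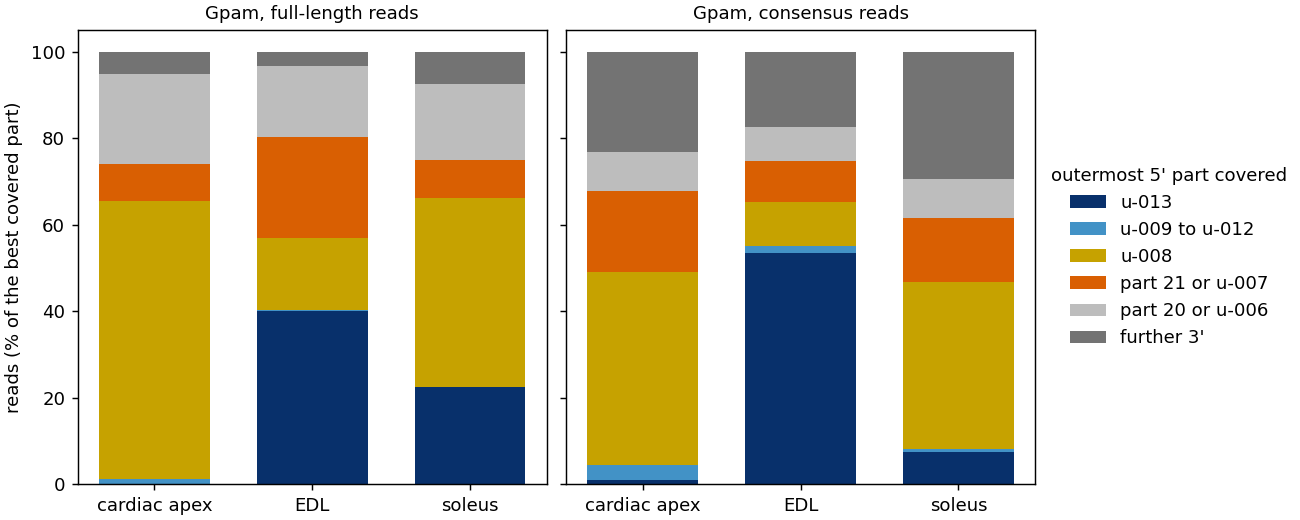
Share of Gpam reads by the outermost 5′ part they cover, for full-length reads (left) and consensus reads (right) in the 3 libraries. The u-013 segment is largest in EDL on both kinds of read (40.0% and 53.5%), falls from 22.4% to 7.38% in soleus and is under 1% in the cardiac apex.

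Reads that went beyond u-008 could also skip it. Of full-length reads that reached u-009, the next part upstream, 0 of 18 in the cardiac apex, 634 of 707 in EDL (89.7%) and 383 of 390 in soleus (98.2%) held u-008. By consensus reads these were 0 of 5, 34 of 70 (48.6%) and 7 of 10. These counts assume that every read whose outermost part is u-008 holds it, and are otherwise lower bounds. Over all covering reads, u-008 was held by 98.4% of 1142, 92.7% of 999 and 99.4% of 1148 full-length reads, differences under 20 points. By consensus reads it was held by 50 of 55 in the cardiac apex, 47 of 83 in EDL and 54 of 57 in soleus. On consensus reads it was called lower in EDL than in the cardiac apex (by 34.3 points, adjusted p 0.000765, Fisher's exact test) and than in soleus (EDL minus soleus -38.1 points, adjusted p 0.000177). Of the covering consensus reads, 50 in the cardiac apex, 13 in EDL and 47 in soleus went no farther than u-008. By the assumption above all of these hold it, so the calls are not separate from how far reads went.

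Part 21 and the exons upstream of it were not exclusive. In EDL at least 224 full-length reads, from at least 6 consensus reads, held part 21 and also ran on to u-007 (chr19:55102051-55102155, 105 nt), the next part upstream. In soleus the counts do not require any such read, and in the cardiac apex they require 1.

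The other u- parts of Gpam upstream of u-008 were rare or covered by few reads. Part u-011 (chr19:55114487-55114686) was held by 17 of 18 covering full-length reads in the cardiac apex, 9 of 707 in EDL and 2 of 390 in soleus. It was called higher in the cardiac apex in both pairs, but those 18 reads come from 5 consensus reads, and only 1 of the 18 went on to u-012. The authors' deposited table marks u-011 an artifact. Part u-009 (chr19:55104627-55104678), which is an exon of Gpam-205, was held by 0 of 18, 22 of 707 and 2 of 390. Part u-012 was held by 0 of 1, 8 of 702 and 0 of 388, and u-010 by 0 of 18, 10 of 707 and 2 of 390.

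Downstream of u-008, part u-004 (chr19:55095514-55095758, 245 nt) was held by 38 of 1694 full-length reads in the cardiac apex, 5 of 1705 in EDL and 10 of 1640 in soleus. Parts u-003, u-005, u-006 and u-007 were held by at most 4 full-length reads in any library. Parts u-001 and u-014 are 10 nt long, lie far outside the gene and come from 1 consensus read each.

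The coding exons and the 3′ end of Gpam were alike in all libraries. Of its 21 annotated parts, 20 were held by at least 95% of covering full-length reads in each library, and part 21 was the exception. The 3′ part u-002 (chr19:55067652-55069670, 2019 nt) was held by all 1742, 1754 and 1736 full-length reads. It lies within the last exon of the M21 transcript Gpam-202, whose exons sum to 6172 nt. Gpam-201, which ends before it, has 3832 nt, below the 5 kb bound of the size selection. Both transcripts carry the same coding length of 2481 nt.

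Acacb lies on the plus strand of chromosome 5, and its exon use was alike in all libraries. Of its 61 annotated parts, 53 were covered by at least 10 full-length reads in every library. Of these 53, 51 were held by at least 95% of the reads in each library. The other 2, parts 17 (chr5:114199779-114200086) and 55 (chr5:114248333-114248583), belong to transcripts annotated as intron-retaining and were held by at most 1 read in any library. No part of Acacb was called for exon use in any pair. Parts 1 to 21, 60 and 61 had at most 29 covering consensus reads in any library, so they could not be called. With no minimum of consensus reads, no Acacb part was called for cardiac apex against EDL or against soleus.

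The most variable stretch of Acacb was u-002 (chr5:114211634-114211700, 67 nt), which matches no M21 exon. It was held by 18 of 82 covering full-length reads in the cardiac apex (21.95%), 14 of 103 in EDL (13.6%) and 39 of 133 in soleus (29.3%). Soleus was highest and EDL lowest. The EDL and soleus shares differed by less than 20 points (adjusted p 0.372, Fisher's exact test), and the adjusted p was 1 in both other pairs. The other unannotated stretch, u-001, was held by 1 of 61, 0 of 87 and 0 of 99 full-length reads.

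Few Acacb reads reached the annotated 5′ end. The first exon (part 1, chr5:114146535-114146825, 291 nt) begins 8788 nt from the 3′ end of Acacb-202 along its exons. It was reached by 6 of 105 full-length reads in the cardiac apex, 25 of 114 in EDL and 21 of 151 in soleus, from 3, 5 and 8 consensus reads. All of them held it, which is no separate result, because it is the outermost part. No pair was called for reach at this part: the cardiac apex minus EDL difference was -16.2 points (adjusted p 0.0186, Fisher's exact test), under the 20 points a call needs, and the adjusted p was 0.339 for cardiac apex against soleus and 0.644 for EDL against soleus. Part 4 (chr5:114175906-114176190), the first exon of the short transcript Acacb-205, was held by 0 of 6, 0 of 26 and 1 of 22, so no use of this start beyond 1 soleus read was seen at this depth.

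At least 50% of the gene's full-length reads extended to part 23 in the cardiac apex, to part 7 in EDL and to part 22 in soleus. Along the exons of Acacb-202 these lie 5740, 7593 and 5891 nt from the 3′ end. EDL reads went farthest. Part 7 (chr5:114190076-114190185) was reached by 17.1% of full-length reads in the cardiac apex, 50.9% in EDL and 29.1% in soleus.

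The reach of Acacb was called lower at 16 parts in the cardiac apex against EDL (part 7, adjusted p 9.26e-06, Fisher's exact test). It was called higher at 8 parts in EDL against soleus (part 7, adjusted p 0.00539) and at 0 parts between the cardiac apex and soleus. Neighbouring parts share their reads and are not separate results. None of these parts was called on consensus reads, where 8, 14 and 13 reads reached part 7.

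**Figure D3:**
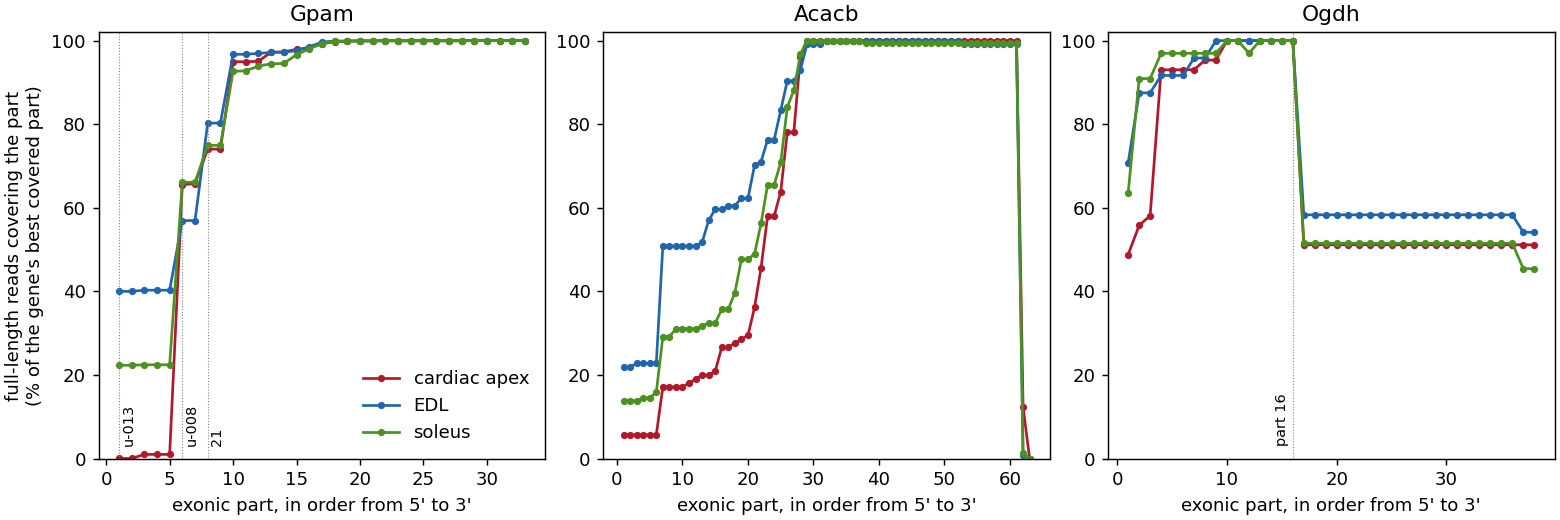
Full-length reads covering each exonic part as a percent of those over the gene's best covered part, from the 5′ to the 3′ end, for the 3 libraries. Parts far outside the gene are left out. Gpam separates at u-013 (0.0574%, 40.0% and 22.4%), Acacb falls off toward its 5′ end with EDL highest, and Ogdh drops after part 16 in all libraries.

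Ogdh lies on the plus strand of chromosome 11, and its coding exons include a choice at which the reads of all 3 muscles held the same exon. Its 38 annotated parts were all covered by at least 10 full-length reads in each library, but at most 22, 15 and 18 consensus reads, so none could reach the 30 consensus reads a call needs. Without that minimum no part was called for exon use in any pair. Part 15 (chr11:6316765-6316855, 91 nt) belongs to Ogdh-202 and Ogdh-203, and part 16 (chr11:6316978-6317080, 103 nt) to Ogdh-201 and Ogdh-204. Ogdh-203 adds part 17 (chr11:6324878-6324922, 45 nt). The exon sequences from GENCODE M21, plus strand, are shown because they are the coding segments in which these annotated transcripts differ.
Ogdh part 15: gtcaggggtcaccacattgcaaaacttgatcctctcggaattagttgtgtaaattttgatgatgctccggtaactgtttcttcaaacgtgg
Ogdh part 16: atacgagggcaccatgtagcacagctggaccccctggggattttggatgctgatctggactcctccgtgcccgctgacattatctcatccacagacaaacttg
Ogdh part 17: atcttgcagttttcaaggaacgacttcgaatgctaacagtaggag
In a global alignment, parts 15 and 16 had the same base in 54 of 104 columns (51.9%). They differ by 12 nt in length, a whole number of codons.

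Part 16 was held by 43 of 43 full-length reads in the cardiac apex, 24 of 24 in EDL and 33 of 33 in soleus. Part 15 was held by 0 of 43, 0 of 24 and 1 of 33, and part 17 by 0 of 22, 0 of 14 and 0 of 17. The 1 soleus read that held part 15 held part 16 too. Taking full-length reads as independent, a count of 0 allows shares of up to 6.98% for part 15 in the cardiac apex and 12.5% in EDL. For part 17 it allows up to 13.6%, 21.4% and 17.6%. These limits are too tight, because the reads come from 22 and 15 consensus reads over part 15, and from 16, 10 and 12 over part 17. The reads of all 3 muscles thus carried the exon of Ogdh-201 and Ogdh-204. The coding length of these transcripts is 3069 nt, but many of the reads did not span it. Of those over part 16, 21 of 43 in the cardiac apex, 10 of 24 in EDL and 16 of 33 in soleus did not cover part 18.

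Ogdh reads that reached the 5′ end covered the first exon that Ogdh-201, Ogdh-203 and Ogdh-204 share in part. Part 4 (chr11:6291668-6291693), common to them, was held by all 40, 22 and 32 covering full-length reads. The outermost bases, part 1 (chr11:6291633-6291640), which only Ogdh-201 has, were reached by 21 full-length reads in the cardiac apex, 17 in EDL and 21 in soleus. Part 2 (chr11:6291641-6291665), just inside it, was reached by 24 of 43 full-length reads in the cardiac apex (55.8%), 21 of 24 in EDL (87.5%) and 30 of 33 in soleus (90.9%). The cardiac apex was lowest, also on consensus reads, at 10 of 22, 12 of 15 and 16 of 18. The adjusted p from Fisher's exact test was 0.0119 for cardiac apex against soleus (-35.1 points) and 0.226 for cardiac apex against EDL (-31.7 points). Without the minimum of 30 consensus reads the soleus pair would be called, as 5.53% of all parts are in that pair, but on consensus reads its adjusted p was 0.139. Parts 6 to 9, alternative first exons of Ogdh-202, Ogdh-206 and Ogdh-207, were each held by at most 1 full-length read in any library. Part 5 (chr11:6291694-6291769, 76 nt) lengthens the first exon in Ogdh-204. It was held by 12 of 40 full-length reads in the cardiac apex (30%), 1 of 22 in EDL (4.55%) and 7 of 32 in soleus (21.9%), and by 8 of 20, 1 of 13 and 5 of 17 consensus reads. EDL was lowest on both kinds of read, but no adjusted p was under 0.05 (0.781 for cardiac apex against EDL and 1 for both other pairs, Fisher's exact test).

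**Figure D4:**
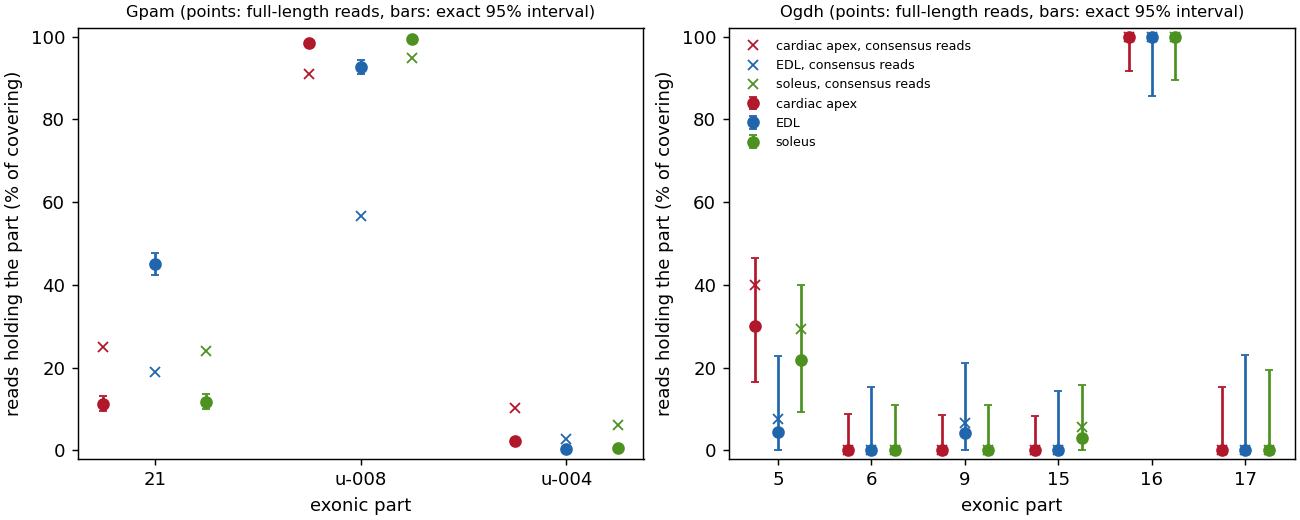
Percent of covering reads that hold selected parts of Gpam (left) and Ogdh (right) in the 3 libraries. Circles are full-length reads with exact 95% intervals and crosses are consensus reads. Gpam part 21 is highest in EDL on full-length reads (44.96%) and lowest there on consensus reads (18.9%), while Ogdh part 16 is at 100% and parts 15 and 17 are at or near 0 in every library.

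Many Ogdh reads covered part 16 but not part 18, and the point where they ended was not measured. Of the full-length reads over part 16, 21 of 43 in the cardiac apex (48.8%), 10 of 24 in EDL (41.7%) and 16 of 33 in soleus (48.5%) did not cover part 18 (chr11:6334533-6334648). By consensus reads these were 6 of 22, 5 of 15 and 6 of 18. The shares were alike in the 3 libraries, and the exact 95% intervals of the full-length shares overlap (33.3 to 64.5%, 22.1 to 63.4% and 30.8 to 66.5%). The longest annotated Ogdh transcript has 4127 nt, below the 5 to 10 kb of the selection. The one unannotated part, u-001, is 25 nt long, lies downstream of the gene and was held by 2 full-length reads of 1 cardiac consensus read.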

How the data were processed

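Per the labels' protocols, cDNA of 5 to 10 kb was sequenced by Iso-Seq. Per the submitters' processing notes, STAR 2.5.0am and the builds mm10 and GRCm38 were used. The authors deposited raw counts of consensus reads per gene, and counts of consensus and full-length reads that cover and that hold each exonic part of 686 genes, with annotation release 85. Reads assigned to no single gene (9.78%, 8.92% and 8.64%) were left out of the totals. File positions counted from 0 were converted to count from 1.

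Groups were taken from the tissue label. Ratios, exact intervals and Fisher's exact tests were computed with scipy 1.17.1 over all genes or parts, requiring at least 20 reads per pair for genes and 10 covering full-length reads in both libraries for parts. These steps were first tested on simulated data. Intervals cover counting error only. Alternative scalings used edgeR 4.0.16 and DESeq2 1.42.0. The 3 genes and the lists were chosen with earlier results of these data known. Genes beside the 3 enzymes were named with at least 20 reads in all libraries together. Parts were named as first or last exons, as u- parts, or from a difference of 10 points. A share of 0 has as its limit 3 counts of the total.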

Additional observations from a re-analysis of the deposited data

How the results depend on the processing

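No paired analysis was possible because each tissue has 1 library. Levels of the 3 enzymes were uncalled under all scalings, minimums and read kinds tried. The largest shift of a scaling, without the 10 most abundant genes, was 0.12 (log2) for cardiac apex over soleus. Taken from full-length reads at its best covered part, Gpam stood at 1.27-fold for cardiac apex over soleus and 1.25-fold for EDL over soleus, the other side of 1. Genes called numbered 65 of 908 and 59 of 897 for cardiac apex against EDL and against soleus with a minimum of 10 reads. With no minimum they were 68 of 2944 and 60 of 2779, and with full-length reads 164 of 639 and 163 of 623. EDL against soleus gave 90 of 610 with full-length reads. Exon use with a minimum of 30 full-length reads called 82 of 7221 parts (1.14%) for cardiac apex against soleus, and 0 of 84 tested parts of the 3 enzymes. For cardiac apex against EDL it called 181 of 7951 parts (2.28%), and 1 of 71 tested parts of the 3 enzymes. On consensus reads exon use called 19 parts of 12401 for EDL against soleus, 146 of 11108 for cardiac apex against EDL and 113 of 10502 for cardiac apex against soleus, of which 1 and 0 in the latter pairs were in the 3 enzymes. Read reach on consensus reads, chosen after seeing the data, called 238 of 15494, 408 of 14904 and 260 of 17410 parts for cardiac against EDL, cardiac against soleus and EDL against soleus, of which 5, 0 and 5 were in the 3 enzymes. Without a minimum of consensus reads, also chosen after seeing the data, reach called 603 of 19637, 1074 of 19417 and 960 of 21757 parts. Ogdh parts 2 and 3 were then called lower in cardiac apex than in soleus. On consensus reads some differences changed sign: exon use of Gpam part 21 (6.05, 1 and -5.05 points in the same order of pairs) and u-011 (-2.86, EDL minus soleus), and reach of Gpam u-008 (-16.2, 2.39 and 18.6) and Acacb part 1 (-3.48, EDL minus soleus). None of these was called, and the cause was not tested. Gpam u-013 between the cardiac apex and EDL was called on both kinds of read.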
